A study of Mus musculus with 2 samples.

Results

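The mitochondrial ribosome (mitoribosome) genes of mouse primary hepatocytes were examined in 2 libraries. The group is all genes typed as mRNA in the deposited tables whose symbol begins with Mrpl (large subunit) or Mrps (small subunit) followed by a number and at most 1 letter. This gave 76 genes of the 35129 gene symbols listed, 47 for the large and 29 for the small subunit. Hepatocytes of the C57BL/6 strain, cells plated from the liver rather than an established line, had been infected with an adenovirus carrying KLF14, a zinc finger protein that regulates transcription (Ad-KLF14), or with a virus labelled GFP as control (Ad-GFP). Both cultures therefore carried adenovirus, and the labels give neither the dose, nor the time after infection, nor whether cultures were pooled. There is 1 library per virus, so no test between the viruses was possible. Every difference given here describes these 2 libraries, and the spread between cultures is unknown.

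Mitoribosomes sit in the mitochondrial matrix and make the few proteins that mitochondrial DNA still encodes, all of them subunits of the respiratory chain and ATP synthase. Their ribosomal RNAs come from mitochondrial DNA, whereas every protein of the particle is encoded in the nucleus, made in the cytosol and imported. The large subunit joins amino acids and holds the tunnel through which the new chain leaves, and the small subunit reads the mRNA. Part of the proteins descend from bacterial ribosomal proteins and the others exist in mitochondria alone. In mammals the nuclear factors NRF1 and GABPA, with coactivators of the PGC-1 family, are known to switch on many genes of mitochondrial gene expression. The liver is rich in mitochondria, and several mitoribosomal genes are disease genes in humans.

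Klf14 itself measured 13164 FPKM with Ad-KLF14 and 0.298 FPKM with Ad-GFP, in the direction of the labels. FPKM are reads scaled by the length of the gene model and the size of the library, so they can be compared between genes. Recovered read totals were 11151711 for Ad-KLF14 and 11311344 for Ad-GFP. The hepatocyte genes Alb, Ttr and Hnf4a were at 4172, 251 and 34.1 FPKM with Ad-KLF14 and at 5115, 255 and 26.2 FPKM with Ad-GFP. Markers of 4 other liver cell types were low in both libraries. The endothelial gene Pecam1 was at 2.03 FPKM with Ad-KLF14 against 1.12 FPKM with Ad-GFP (ratio 1.81, 95% counting interval 1.23 to 2.71), and the bile duct gene Krt19 at 0.196 FPKM with Ad-KLF14 against 1.74 FPKM with Ad-GFP (ratio 0.113, interval 0.0219 to 0.366). The leukocyte gene Ptprc was at 0.602 FPKM with Ad-KLF14 against 0.656 FPKM with Ad-GFP and the fibroblast gene Col1a1 at 0.0190 FPKM with Ad-KLF14 against 0.0939 FPKM with Ad-GFP, and their intervals held 1. The part of such cells in the values of the members was not tested. A lower value in such a culture can come from less RNA per cell or from fewer cells that make it, and bulk libraries cannot tell these apart.

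Taken over all genes chosen by symbol, mitoribosomal mRNAs were slightly higher with Ad-KLF14. A gene was kept when its 2 values averaged 1 FPKM or more. All 76 members and 12419 genes in all were kept. On the log2(FPKM + 1) scale, where a difference is Ad-KLF14 minus Ad-GFP, 50 of the 76 were above 0 (65.8%, against 48.3% of all genes kept), and their median was 0.17, against −0.03 over all genes kept. Only Mrpl4 and Mrps23 were at least 2-fold higher, 2 of 76 genes (2.63%), beside 6.37% of all genes kept. None of the 76 was at least 2-fold lower, beside 8.99% of all genes kept. Mrpl47 and Mrps26 lay just under the limit with log2 differences of 0.99 each, and Mrps23 just above it with 1.04. Under other scalings and pseudocounts the count was 4, with Mrpl47 and Mrps26, or 1, without Mrps23.

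At 1.5-fold, 13 genes were higher (17.1%, against 16.7% of all genes kept) and 5 were lower (6.58%, against 20.9%), while 58 lay within 1.5-fold. The share of higher genes was thus close to that of the whole table, and the share of lower genes was below it. The 95% counting interval of the FPKM ratio, computed from the reads recovered for a gene, lay above 1 for 35 genes (46.1%, against 33.4% of all genes kept) and below 1 for 18 (23.7%, against 37.3%). For the other 23 it held 1. The recovered reads are mostly lower limits, so these intervals may be too wide, and some that held 1 might not at the full depth. They cover counting error only and say nothing of how much separate cultures would differ. Summed over the 76 genes the level was 3903 FPKM with Ad-KLF14 and 3445 FPKM with Ad-GFP, a ratio of 1.13.

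**Figure D1:**
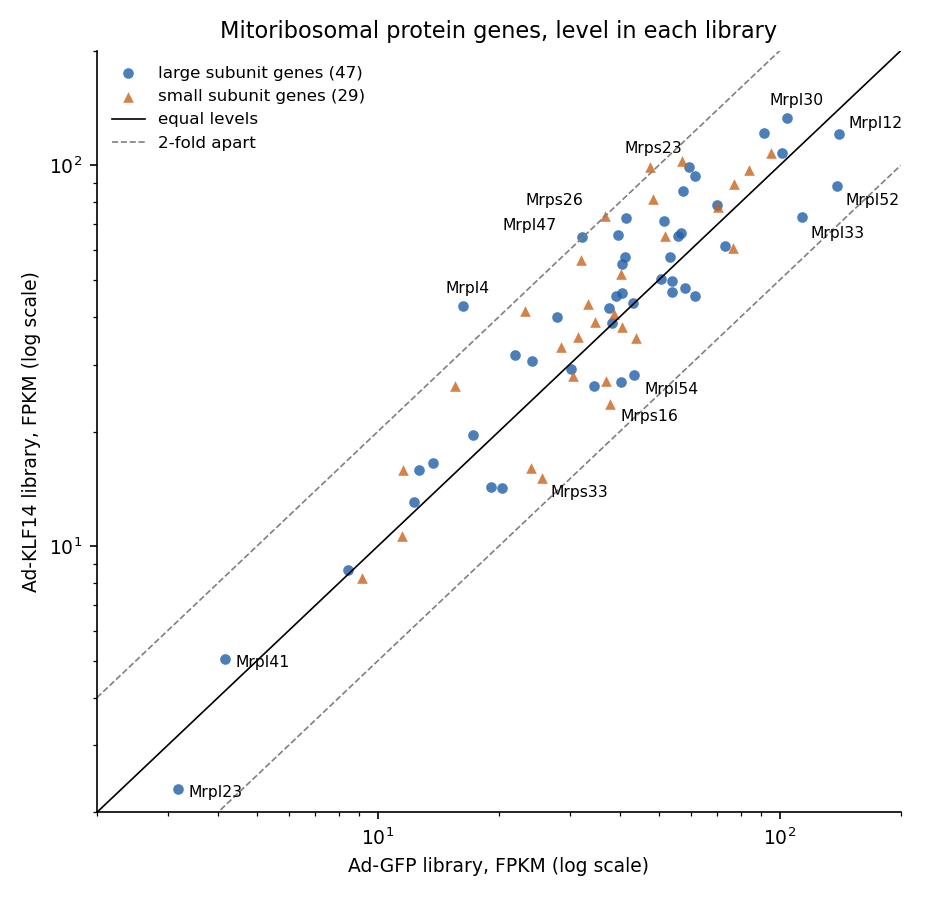
Level of each of the 76 mitoribosomal genes in FPKM in the Ad-KLF14 library (vertical, log scale) and in the Ad-GFP library (horizontal, log scale), circles for the 47 large and triangles for the 29 small subunit genes. The solid line marks equal levels and the dashed lines a 2-fold ratio of FPKM without a pseudocount, which Mrpl47 and Mrps26 pass by a little. Most points lie between the dashed lines, and Mrpl4 stands farthest above.

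Among large subunit genes the highest ratio was that of Mrpl4, the counterpart of a bacterial protein that lines the exit tunnel. It was at 42.9 FPKM with Ad-KLF14 and 16.3 FPKM with Ad-GFP, a ratio of 2.64 (counting interval 2.27 to 3.08, from 616 reads with Ad-KLF14 and 237 with Ad-GFP). Mrpl47, whose bacterial counterpart lies beside the tunnel's mouth, was at 65.0 FPKM with Ad-KLF14 and 32.1 FPKM with Ad-GFP, a ratio of 2.02 (interval 1.76 to 2.32). Mrpl27 is related to a bacterial protein near the site of peptide bond formation. It was at 73.0 FPKM with Ad-KLF14 against 41.4 FPKM with Ad-GFP (ratio 1.76). Mrpl18, of the central protuberance at the top of the subunit, was at 98.9 FPKM with Ad-KLF14 against 59.6 FPKM with Ad-GFP (ratio 1.66). Mrpl49, which has no bacterial relative, was at 65.6 FPKM with Ad-KLF14 against 39.6 FPKM with Ad-GFP (ratio 1.66). Mrpl9, the counterpart of bacterial L9, was at 93.8 FPKM with Ad-KLF14 against 61.7 FPKM with Ad-GFP (ratio 1.52). The counting intervals of all 6 lay above 1.

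At the other end of the large subunit stood mostly genes for small proteins, 5 of 6 with a coding length under 450 bases, beside 22 of all 76 members. Mrpl52, specific to mitochondria, was at 88.1 FPKM with Ad-KLF14 and 139 FPKM with Ad-GFP, a ratio of 0.633 (interval 0.558 to 0.718, from 405 and 649 reads). Mrpl33, with a bacterial counterpart at the site where spent tRNAs leave, was at 73.0 FPKM with Ad-KLF14 against 114 FPKM with Ad-GFP (ratio 0.642, interval 0.586 to 0.704). Mrpl54, again specific to mitochondria, was at 28.1 FPKM with Ad-KLF14 against 43.5 FPKM with Ad-GFP (ratio 0.646). Mrpl44, which has the fold of a ribonuclease and in humans is a cardiomyopathy gene, was at 27.0 FPKM with Ad-KLF14 against 40.4 FPKM with Ad-GFP (ratio 0.668). Mrpl36, the counterpart of a very small bacterial protein, was at 14.2 FPKM with Ad-KLF14 against 20.3 FPKM with Ad-GFP (ratio 0.699). Mrpl42, without a bacterial relative, was at 45.5 FPKM with Ad-KLF14 against 61.5 FPKM with Ad-GFP (ratio 0.740). All 6 intervals lay below 1, yet none of these genes reached 2-fold.

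In the small subunit Mrps23, a protein without a bacterial relative, had the highest ratio, with 99.0 FPKM with Ad-KLF14 and 47.5 FPKM with Ad-GFP. The ratio was 2.09 (counting interval 1.78 to 2.45, from 479 and 233 reads). Mrps26, likewise specific to mitochondria, was at 73.7 FPKM with Ad-KLF14 against 36.7 FPKM with Ad-GFP (ratio 2.01, interval 1.78 to 2.27). Mrps7, whose bacterial counterpart organises the head of the subunit, was at 103 FPKM with Ad-KLF14 against 57.2 FPKM with Ad-GFP (ratio 1.79). Mrps27, an RNA-binding pentatricopeptide repeat protein, was at 41.4 FPKM with Ad-KLF14 against 23.2 FPKM with Ad-GFP (ratio 1.79). Mrps17, with a bacterial counterpart, was at 56.6 FPKM with Ad-KLF14 against 32.0 FPKM with Ad-GFP (ratio 1.77). Mrps22, mutated in a human disorder of the respiratory chain, was at 81.8 FPKM with Ad-KLF14 against 48.4 FPKM with Ad-GFP (ratio 1.69). In each of these 6 the interval lay above 1.

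The lowest ratio of the whole particle was that of Mrps33, a small mitochondria-specific protein of the small subunit, at 15.1 FPKM with Ad-KLF14 and 25.6 FPKM with Ad-GFP. The ratio was 0.590 (interval 0.488 to 0.712, from 178 and 306 reads). Mrps16, another human disease gene with a bacterial counterpart, was at 23.6 FPKM with Ad-KLF14 against 37.8 FPKM with Ad-GFP (ratio 0.625, interval 0.506 to 0.769). Mrps28 was at 16.0 FPKM with Ad-KLF14 against 24.0 FPKM with Ad-GFP (ratio 0.668). Mrps35, specific to mitochondria, was at 27.2 FPKM with Ad-KLF14 against 36.9 FPKM with Ad-GFP (ratio 0.739). Mrps21 was at 60.8 FPKM with Ad-KLF14 against 76.5 FPKM with Ad-GFP (ratio 0.795) and Mrps15 at 35.2 FPKM with Ad-KLF14 against 43.9 FPKM with Ad-GFP (ratio 0.801), both with bacterial counterparts. These 6 intervals lay below 1.

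**Figure D2:**
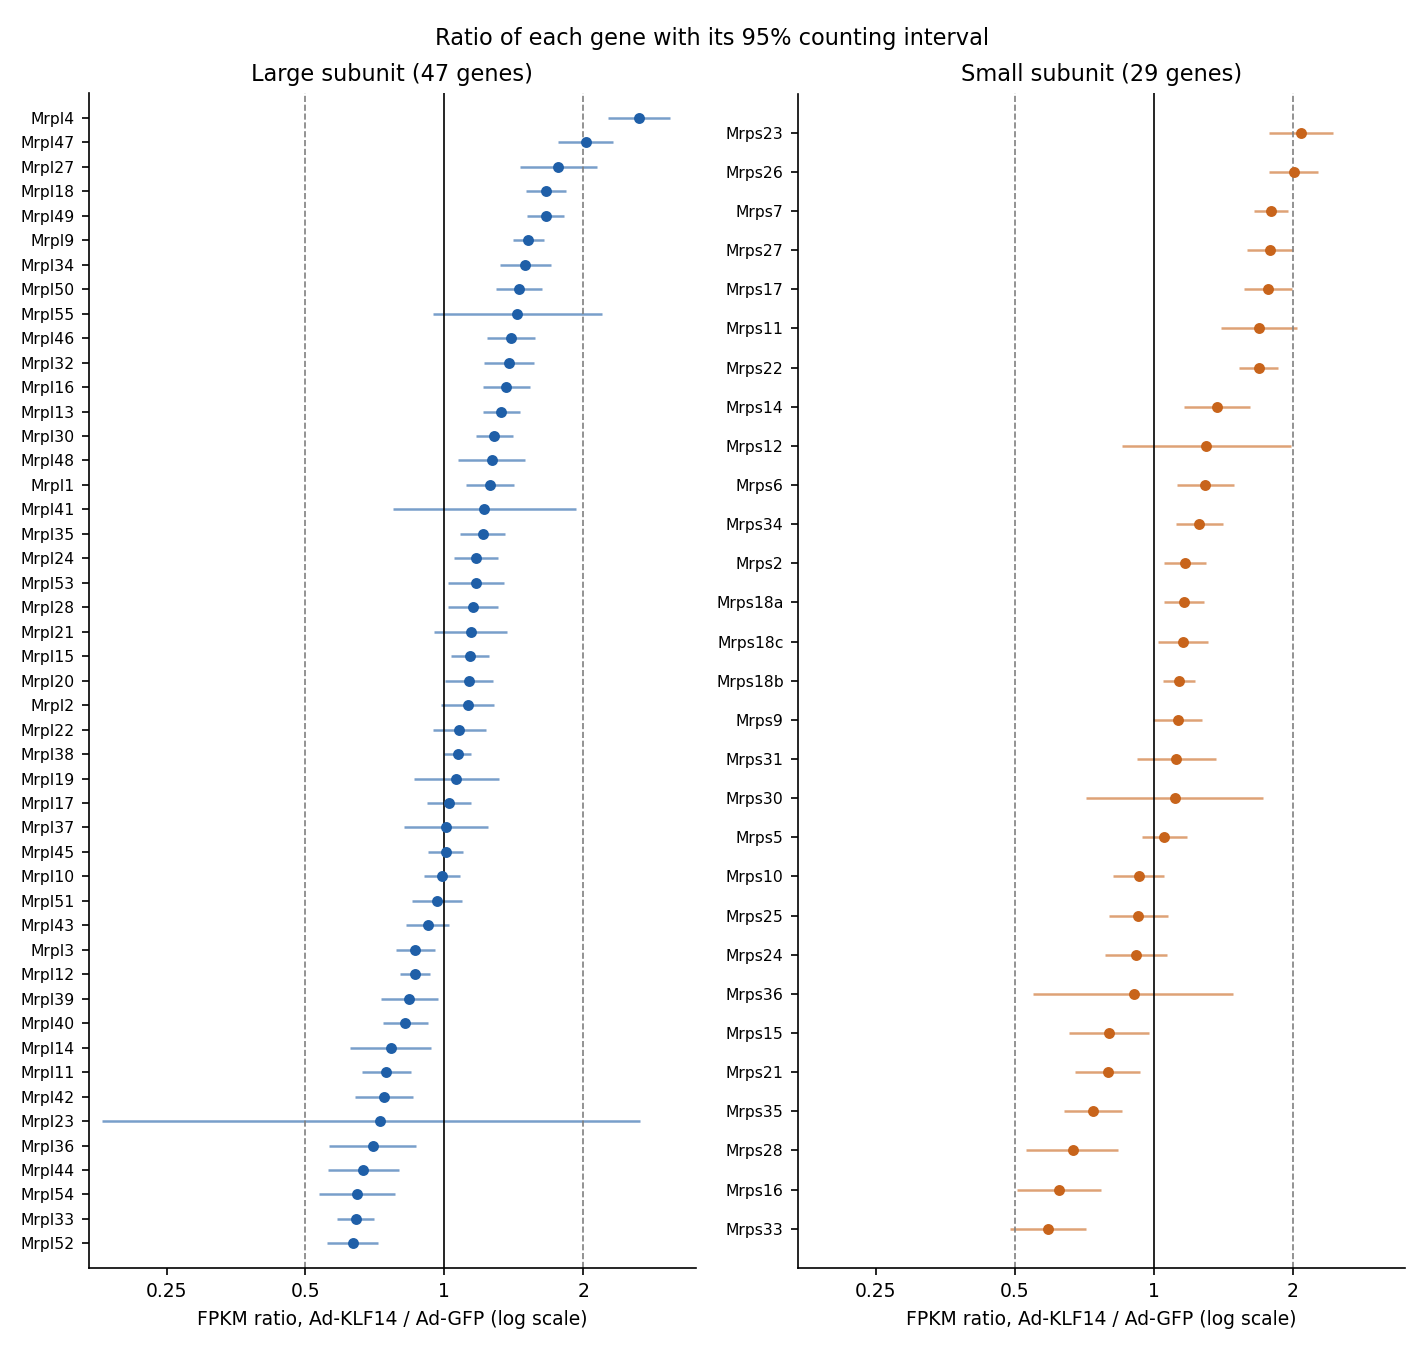
Ratio of FPKM, Ad-KLF14 over Ad-GFP, for each large (left) and small (right) subunit gene on a log scale, ordered within the subunit, with bars for the 95% counting interval. The solid line marks a ratio of 1 and the dashed lines 2-fold. The intervals cover counting error in 1 library per virus. Mrpl23 rests on at least 5 reads with Ad-KLF14 and 7 with Ad-GFP and has a very wide interval, 0.181 to 2.65.

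The subunits had nearly the same median. The median log2 difference was 0.17 for the 47 large and 0.18 for the 29 small subunit genes, a difference of medians (large minus small) of −0.01. Of the large subunit genes 31 were above 0 (66.0%), and of the small subunit genes 19 (65.5%). The quartiles were −0.21 and 0.42 in the large and −0.12 and 0.42 in the small subunit. Summed levels were 2462 FPKM with Ad-KLF14 against 2251 FPKM with Ad-GFP for the large subunit (ratio 1.09) and 1441 FPKM with Ad-KLF14 against 1194 FPKM with Ad-GFP for the small subunit (ratio 1.21). At 1.5-fold, 6 large subunit genes (12.8%) and 7 small subunit genes (24.1%) were higher, beside 16.7% of all genes kept. Lower were 3 large (6.38%) and 2 small subunit genes (6.9%), beside 20.9% of all genes kept.

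Symbols do not always give the place in the particle. Structures of the mammalian mitoribosome put Mrps18a and Mrps30 in the large subunit, and Mrps36 is a component of the 2-oxoglutarate dehydrogenase complex. With the genes sorted by place, 49 large subunit genes had a median of 0.17 and 26 small subunit genes a median of 0.20. Mrps30 was at 77.8 FPKM with Ad-KLF14 against 70.1 FPKM with Ad-GFP (ratio 1.11) and Mrps36 at 8.27 FPKM with Ad-KLF14 against 9.14 FPKM with Ad-GFP (ratio 0.905), and the counting intervals of both held 1. For Mrps30 the recovered gene model is only 53 bases long for a coding length of 1326 bases. Its reads are therefore probably far too few, and its interval might not hold 1 at the full depth.

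Within each subunit the genes were also grouped by the descent of their proteins, leaving out Mrps18a, Mrps18b and Mrps36. In the large subunit the 30 genes with a bacterial counterpart had a median log2 difference of 0.19, with 22 above 0. The 18 large subunit genes specific to mitochondria, Mrps30 among them, had a median of 0.01, with 10 above 0 (−0.04 and 8 when the running median along the mean level was removed). Their summed level was 901 FPKM with Ad-KLF14 and 940 FPKM with Ad-GFP. In the small subunit the order was the other way round. The 16 genes with a bacterial counterpart had a median of 0.19, with 10 above 0, and the 9 specific to mitochondria had a median of 0.32, with 6 above 0 and summed levels of 453 FPKM with Ad-KLF14 against 316 FPKM with Ad-GFP (ratio 1.43). These medians rest on few genes and were not tested. The lowest member of a group lay between −0.72 and −0.63 and the highest between 0.71 and 1.35, so the groups overlapped widely.

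**Figure D3:**
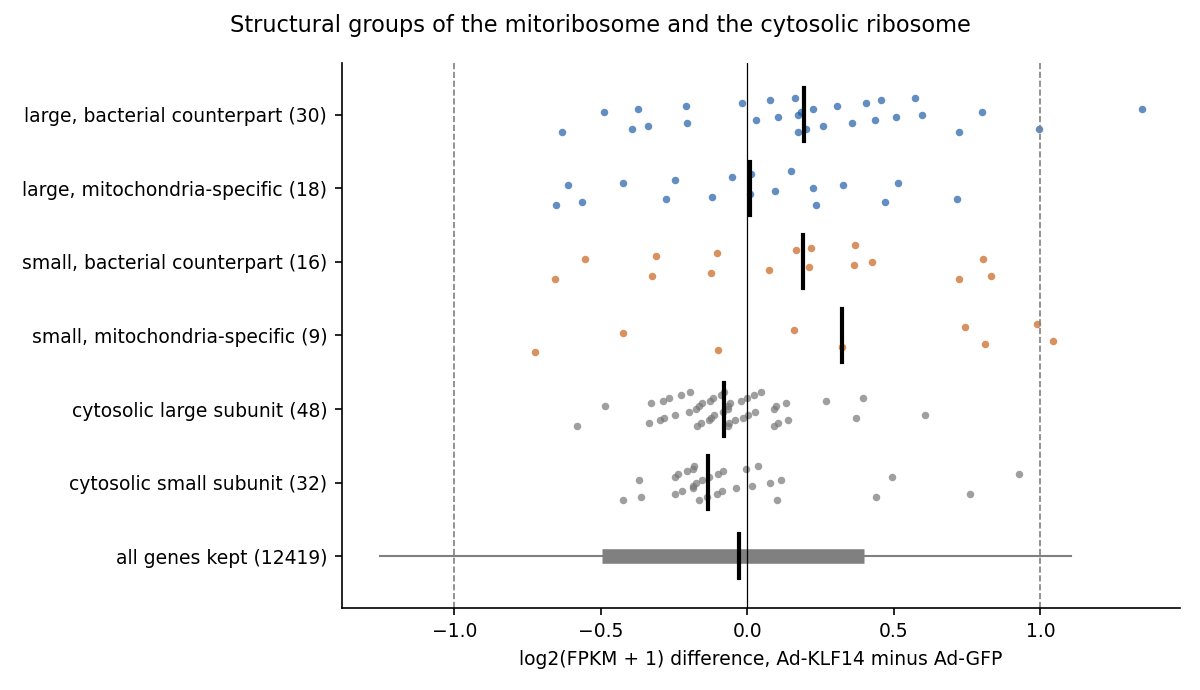
Difference of log2(FPKM + 1), Ad-KLF14 minus Ad-GFP, of each gene in 4 structural groups of the mitoribosome and in the cytosolic large and small ribosomal subunits, with the number of genes in brackets and a black bar at the median. For all 12419 genes kept, the thick grey bar spans the 25th to 75th percentile and the thin line the 5th to 95th percentile. Dashed lines mark 2-fold. The mitoribosomal groups overlap, and both cytosolic medians are below 0.

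The mRNA levels of the members spanned a wide range that was alike in both libraries. Levels ran from 2.31 to 134 FPKM with Ad-KLF14 and from 3.19 to 140.1 FPKM with Ad-GFP. The medians were 45.4 FPKM with Ad-KLF14 and 40.3 FPKM with Ad-GFP, beside 11.9 FPKM with Ad-KLF14 and 12.5 FPKM with Ad-GFP over all genes kept. Pearson's r between both viruses over the 76 genes was 0.90 on log2(FPKM + 1), a description across genes, which are not replicates. By the mean of both libraries, the highest large subunit mRNAs were Mrpl12, the stalk protein that recruits translation factors (121 FPKM with Ad-KLF14 against 140.1 FPKM with Ad-GFP, ratio 0.863), Mrpl30 (134 FPKM with Ad-KLF14 against 104 FPKM with Ad-GFP, ratio 1.28) and Mrpl52. With Ad-KLF14 alone, Mrpl13 (122 FPKM with Ad-KLF14 against 91.7 FPKM with Ad-GFP) lay above Mrpl12, and Mrpl13, Mrpl38, Mrpl18 and Mrpl9 lay above Mrpl52. The lowest in both libraries were Mrpl23, a tunnel exit protein (2.31 FPKM with Ad-KLF14 against 3.19 FPKM with Ad-GFP), Mrpl41 (5.07 FPKM with Ad-KLF14 against 4.16 FPKM with Ad-GFP) and Mrpl17 (8.64 FPKM with Ad-KLF14 against 8.46 FPKM with Ad-GFP), and the counting intervals of all 3 ratios held 1. The recovered gene model of Mrpl17 is 6712 bases long for a coding length of 528 bases, and that model length enters its FPKM.

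By the mean of both libraries, the 3 highest mRNAs with an Mrps symbol were the 3 relatives of bacterial S18. With Ad-KLF14 alone, Mrps7 and Mrps23 lay above Mrps18c and Mrps18a. In mammals all 3 are built into the same mitoribosome at different places, Mrps18c in the old S18 site, Mrps18b elsewhere in the small subunit and Mrps18a in the large subunit. Mrps18b was at 108 FPKM with Ad-KLF14 and 95.1 FPKM with Ad-GFP, Mrps18c at 97.4 FPKM with Ad-KLF14 against 84.0 FPKM with Ad-GFP and Mrps18a at 89.3 FPKM with Ad-KLF14 against 76.8 FPKM with Ad-GFP. Their ratios of 1.14, 1.16 and 1.16 differed by less than their counting intervals, which ran from 1.02 at the lowest to 1.31 at the highest. At the low end of the genes with an Mrps symbol, again by the mean, were Mrps36, which is no part of the small subunit, Mrps25 (10.7 FPKM with Ad-KLF14 against 11.5 FPKM with Ad-GFP) and Mrps14 (15.9 FPKM with Ad-KLF14 against 11.6 FPKM with Ad-GFP, ratio 1.37), the last of them a protein with a bacterial counterpart.

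To show what lies before the genes at both ends of the order, upstream sequences are printed for the 3 genes with the highest and the 3 with the lowest log2 difference among those with a single RefSeq promoter entry. Each is the 250 bases before the start of the gene in GRCm38.p6, read 5′ to 3′ on the gene's strand. Capitals mark matches, on either strand, to CGCATGCG (core of the NRF1 site), CCGGAAG (bound by ETS factors such as GABPA), GGGCGG (the GC box of SP and KLF factors) or CCACCC (the CACCC box of KLF factors). Matches may overlap each other.
The 3 with the highest differences are Mrps23 at chr11:88204138-88204387 (plus strand), Mrpl47 at chr3:32736756-32737005 (minus strand) and Mrps26 at chr2:130563507-130563756 (plus strand).
Mrps23: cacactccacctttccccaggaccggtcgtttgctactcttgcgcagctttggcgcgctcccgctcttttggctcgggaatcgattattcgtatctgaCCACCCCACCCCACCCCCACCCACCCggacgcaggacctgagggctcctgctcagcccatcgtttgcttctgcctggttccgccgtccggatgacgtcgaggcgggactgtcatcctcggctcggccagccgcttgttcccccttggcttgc
Mrpl47: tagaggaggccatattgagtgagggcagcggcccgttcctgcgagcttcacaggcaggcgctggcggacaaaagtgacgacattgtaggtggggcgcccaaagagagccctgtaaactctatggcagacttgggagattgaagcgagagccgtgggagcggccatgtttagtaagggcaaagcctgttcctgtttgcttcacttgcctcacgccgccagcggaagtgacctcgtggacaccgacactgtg
Mrps26: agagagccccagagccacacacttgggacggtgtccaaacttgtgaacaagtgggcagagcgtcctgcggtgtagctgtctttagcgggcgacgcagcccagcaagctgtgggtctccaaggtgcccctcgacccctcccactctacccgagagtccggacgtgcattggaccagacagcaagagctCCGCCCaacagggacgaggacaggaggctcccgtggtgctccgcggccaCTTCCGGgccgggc
The 3 with the lowest differences are Mrps33 at chr6:39810937-39811186 (minus strand), Mrpl52 at chr14:54426659-54426908 (plus strand) and Mrpl33 at chr5:31613701-31613950 (plus strand).
Mrps33: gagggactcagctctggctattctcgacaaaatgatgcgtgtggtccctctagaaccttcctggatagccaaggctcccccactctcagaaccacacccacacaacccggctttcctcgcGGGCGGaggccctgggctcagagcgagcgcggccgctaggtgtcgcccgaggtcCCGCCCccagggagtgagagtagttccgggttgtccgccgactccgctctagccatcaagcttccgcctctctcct
Mrpl52: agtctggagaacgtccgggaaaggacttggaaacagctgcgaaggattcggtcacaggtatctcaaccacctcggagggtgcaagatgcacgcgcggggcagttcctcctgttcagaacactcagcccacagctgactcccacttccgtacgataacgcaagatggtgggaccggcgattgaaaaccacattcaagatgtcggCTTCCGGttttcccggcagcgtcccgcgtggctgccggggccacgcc
Mrpl33: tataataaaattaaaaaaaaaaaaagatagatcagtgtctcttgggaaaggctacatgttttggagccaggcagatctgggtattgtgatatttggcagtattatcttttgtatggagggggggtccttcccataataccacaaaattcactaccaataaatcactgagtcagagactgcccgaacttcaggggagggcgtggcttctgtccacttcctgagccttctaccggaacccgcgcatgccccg

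Mrps23 had 5 CACCC boxes, overlapping or directly adjoining, in 1 run and no other match, Mrpl47 had no match, and Mrps26 had 1 GC box and 1 ETS match. Mrps33 had 2 GC boxes, Mrpl52 had 1 ETS match and Mrpl33 had none. A match is a description of letters, not of binding, and no binding was measured. Of the 76 genes 67 had a promoter entry, and Mrpl4 is among the 9 without one. The CACCC box was found before 16 of the 67 (23.9%), against 30.6% of all 27025 symbols with an entry and 36.8% of the kept mRNA genes. The 16 genes with the box had a median log2 difference of 0.35, with 12 above 0, and the 51 without it had a median of 0.16, with 32 above 0. The GC box was found before 32 genes (47.8%, against 35.4% of all symbols and 65.2% of the kept mRNA genes), with medians of 0.17 with and 0.18 without it. By subunit, the GC box stood before 39.0% of 41 large and 61.5% of 26 small subunit genes. The CACCC box stood before 19.5% and 30.8% of them.

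The motifs of the mitochondrial regulators were more common before the members than over all genes, while medians with and without them were close. The ETS motif stood before 17 of the 67 genes (25.4%), against 7.83% of all symbols and 16.4% of the kept mRNA genes, and the medians were 0.21 with and 0.17 without it. The NRF1 core stood before 7 genes (10.4%), against 1.75% of all symbols and 3.94% of the kept mRNA genes, with medians of 0.11 with and 0.19 without it. Of these 7, 6 were among the 41 large subunit genes with an entry (14.6%), Mrpl9 and Mrpl17 among them. Only 1, Mrps18b, was among the 26 small subunit genes with an entry (3.85%). For the ETS motif the shares were 26.8% in the large and 23.1% in the small subunit. The mRNAs of the factors were slightly lower, Nrf1 at 12.2 FPKM with Ad-KLF14 against 14.2 FPKM with Ad-GFP (ratio 0.861) and Gabpa at 17.6 FPKM with Ad-KLF14 against 19.8 FPKM with Ad-GFP (ratio 0.888). The coactivator gene Ppargc1a was at 2.58 FPKM with Ad-KLF14 and 0.558 FPKM with Ad-GFP (ratio 4.63, interval 3.28 to 6.66). It was the 1 regulator gene of 11 (9.09%, beside 6.37% of all genes kept) at least 2-fold higher. The regulators Yy1, Myc, Esrra and Sp1 had ratios of 0.646, 0.662, 0.688 and 0.821. Of 11 kept regulator genes, from 12 symbols searched, 5 were above 0 and 6 below, with a median of −0.16. Besides Ppargc1a, those above 0 were its relatives Ppargc1b (ratio 1.82) and Pprc1 (ratio 1.18), and Gabpb2 (ratio 1.27) and Gabpb1 (ratio 1.09, interval holding 1).

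Proteins of the mitoribosome whose symbols lie outside the Mrpl and Mrps pattern were looked at beside the members. The 7 genes had a median of 0.22, 6 were above 0 and none was 2-fold apart. Mrp63, of the large subunit, was at 11.2 FPKM with Ad-KLF14 against 8.76 FPKM with Ad-GFP (ratio 1.28). Aurkaip1, of the small subunit, was at 89.9 FPKM with Ad-KLF14 against 75.9 FPKM with Ad-GFP (ratio 1.18). Dap3, a GTP-binding protein of the small subunit, was at 18.2 FPKM with Ad-KLF14 against 15.3 FPKM with Ad-GFP (ratio 1.19).

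Next came the factors that work on the mitoribosome. Of 18 kept translation factor genes, from 19 symbols searched, 13 were above 0, with a median of 0.33 and none 2-fold apart. Mtrf1l, a release factor that ends mitochondrial translation, was at 9.65 FPKM with Ad-KLF14 against 4.89 FPKM with Ad-GFP (ratio 1.97). Lrpprc, which stabilises mitochondrial mRNAs, was at 37.7 FPKM with Ad-KLF14 against 24.0 FPKM with Ad-GFP (ratio 1.57). The elongation factor gene Tsfm was at 12.3 FPKM with Ad-KLF14 against 21.1 FPKM with Ad-GFP (ratio 0.583). Of 20 kept genes for assembly and rRNA modification, from 29 symbols searched with older and newer names, 8 were above 0, with a median of −0.06. Rnmtl1, which methylates the rRNA of the large subunit, was the 1 gene of the 20 (5.0%, beside 6.37% of all genes kept) at least 2-fold higher (44.8 FPKM with Ad-KLF14 against 19.6 FPKM with Ad-GFP, ratio 2.29). Nsun4, which methylates the rRNA of the small subunit and is needed to join the subunits, was at 1.94 FPKM with Ad-KLF14 against 4.86 FPKM with Ad-GFP (ratio 0.399), and Spg7, a subunit of the protease that matures Mrpl32, at 9.64 FPKM with Ad-KLF14 against 18.4 FPKM with Ad-GFP (ratio 0.523). On log2(FPKM + 1) the differences of Nsun4 and Spg7, −0.99 and −0.87, were under 2-fold. Mrpl32 itself was at 71.3 FPKM with Ad-KLF14 against 51.7 FPKM with Ad-GFP (ratio 1.38).

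Other genes supply the mitoribosome with RNA and charged tRNAs. Of 7 kept genes of mitochondrial transcription and DNA maintenance, from 8 symbols searched, 6 were above 0 (median 0.41), beside 48.3% of all genes kept. At least 2-fold higher were 2 of the 7 (28.6%), beside 6.37% of all genes kept. These were Tfb2m, which opens mitochondrial promoters (32.9 FPKM with Ad-KLF14 against 11.0 FPKM with Ad-GFP, ratio 2.99), and Peo1, the helicase of mitochondrial DNA (23.8 FPKM with Ad-KLF14 against 10.8 FPKM with Ad-GFP, ratio 2.21). Polg2, the accessory subunit of the mitochondrial DNA polymerase, was at 4.21 FPKM with Ad-KLF14 against 2.24 FPKM with Ad-GFP (ratio 1.88). Of 20 kept genes for charging mitochondrial tRNAs, from 21 symbols searched, 8 were above 0 (median −0.09). At least 2-fold higher was 1 gene (5.0%, beside 6.37% of all genes kept), and 1 was at least 2-fold lower (5.0%, beside 8.99%). Gatc, a subunit of the enzyme that makes glutaminyl-tRNA, was the higher one (29.6 FPKM with Ad-KLF14 against 14.2 FPKM with Ad-GFP). Mars2, for methionine, had a ratio of 2.16 but stayed under 2-fold with the pseudocount. Iars2, for isoleucine, was the lower one (12.4 FPKM with Ad-KLF14 against 31.0 FPKM with Ad-GFP, ratio 0.400). The 13 mRNAs that mitoribosomes translate had a median of 0.17, with 10 above 0 and none 2-fold apart. Their levels differed widely. COX1, CYTB, ND1, ND2, ND4, ND5 and ND6 were at 1229 FPKM or more in both libraries, and their intervals lay above 1. ATP6, ATP8, COX2, COX3, ND3 and ND4L were at 49.0 FPKM or less in both, and their intervals held 1. The 3 genes below 0, ATP6, COX3 and ND3, were among these low ones. Why their values are low was not tested. ND5 was at 1536 FPKM with Ad-KLF14 against 1229 FPKM with Ad-GFP (ratio 1.25). ATP8 and ND4L, with ratios of 1.42 and 1.38, rest on at least 7 and 19 reads with Ad-KLF14 and at least 5 and 14 with Ad-GFP.

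**Figure D4:**
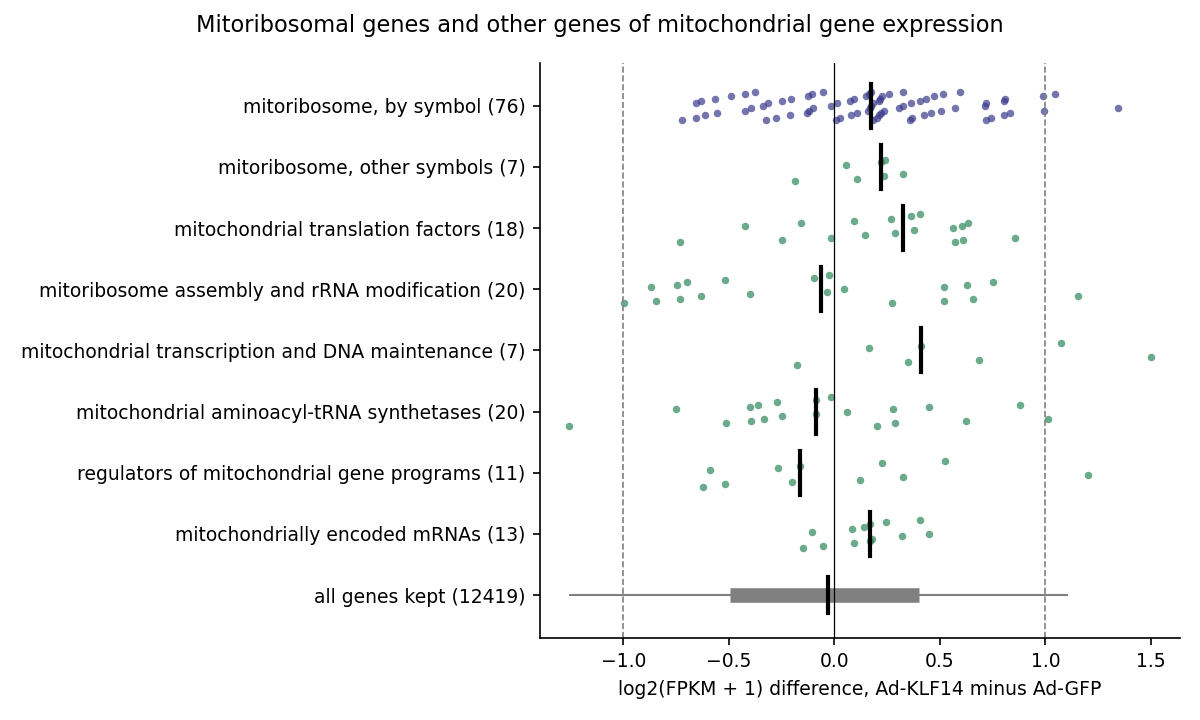
Difference of log2(FPKM + 1), Ad-KLF14 minus Ad-GFP, of each of the 76 mitoribosomal genes and of the kept genes of 7 related lists, with the number of genes in brackets and a black bar at the median. For all genes kept, the thick grey bar spans the 25th to 75th percentile and the thin line the 5th to 95th percentile. Dashed lines mark 2-fold. Medians run from −0.16 for the regulators to 0.41 for transcription and DNA maintenance.

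The cytosolic ribosome, the other ribosome of the cell, had a median below 0 on this scale. Of 80 kept cytosolic ribosomal protein genes 23 were above 0 (28.7%, against 65.8% of the mitoribosomal genes), with a median of −0.10. The median stayed below 0 under the 4 other scalings, −0.08 to −0.05, but was 0.04 when the running median along the mean level was removed, where that of the mitoribosomal genes was 0.15. Large and small cytosolic subunits were alike here too, with medians of −0.08 over 48 genes and −0.13 over 32. None of the 80 was 2-fold apart. Many cytosolic ribosomal protein genes have near-identical copies in the genome, and how reads with several matches were treated is not stated, so single values among them are uncertain. The distance between the medians of both ribosomes was not tested, since genes are not replicates.

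Several features of the measurement touch single members. Whether strand was used in counting is not stated. In GENCODE M21, exons of 22 of the 76 genes overlap those of another protein-coding gene by at least 50 bases, in 19 of them on the opposite strand. Reads of such pairs cannot be told apart without strand. Mrpl47 shares bases with Actl6a (46.4 FPKM with Ad-KLF14 against 52.7 FPKM with Ad-GFP, ratio 0.880) and Ndufb5 (61.7 FPKM with Ad-KLF14 against 46.9 FPKM with Ad-GFP, ratio 1.31), and Mrps7 with Gga3 (ratio 0.765) and Mif4gd (ratio 0.506). Mrpl9 shares bases with Oaz3 (0.474 FPKM with Ad-KLF14 against 0.0778 FPKM with Ad-GFP, ratio 6.09) and Mrpl44 with Wdfy1 (ratio 1.27). For Mrpl18, Mrpl27 and Mrpl49 the partners had ratios of 0.813 (Tcp1), 1.14 (Eme1) and 0.812 (Syvn1). Of 20 overlaps with a value for the partner, the partner's ratio was above the member's in 8. Mrpl46 and Mrps11 are each other's partner and enter this count from both sides, with opposite outcomes. The part of overlap in the members' values was not tested. Mrpl43, at 49.6 FPKM with Ad-KLF14 against 54.0 FPKM with Ad-GFP, shares 507 bases with the helicase gene Peo1, named Twnk in GENCODE (ratio 2.21). Mrpl46 and Mrps11 overlap each other by 173 bases and were both higher, with ratios of 1.39 and 1.69. Mrpl4, Mrps23 and Mrps26 had no such overlap. Pseudogene rows of Mrpl23, Mrpl48, Mrpl51 and Mrps36 were listed at up to 2.61 FPKM with Ad-KLF14 and 3.27 FPKM with Ad-GFP, so values of these 4 genes are less certain.

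Coding length was looked at because several of the lowest members code for small proteins, and those members are also in the split below. Among the highest members, Mrps17 (360 bases, ratio 1.77) and Mrpl27 (444 bases, ratio 1.76) are short too. Of 22 members with a coding length under 450 bases 11 were above 0 (median 0.06), and of the 54 longer ones 39 (72.2%, median 0.18). Across all 76 genes Spearman's rho between coding length and log2 difference was 0.11. Among kept mRNA genes with a coding length the same split gave 43.5% of 611 short genes above 0 (median −0.10) and 47.8% of 9259 longer ones (median −0.04). The part of length in the values of the short members was not tested.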

How the data were processed

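Total RNA was made into 1 Illumina TruSeq RNA library per virus, per the labels' protocols. Bowtie 0.12.2 and the mm8 build are named in the submitters' processing notes, while the design text names BWA, TopHat and Cufflinks beside retinal profiles in triplicate. Gene models, the counting rule and any pooling of cultures are not given in the sources used here. The authors deposited FPKM values, 1 table per library.

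Reads were recovered from the FPKM steps. For all 16944 genes above 0 in both libraries the ratio was a ratio of whole numbers times 1 constant (relative tolerance 1e-11). The totals were fixed up to a whole factor, and the factor of 9 was chosen because it made the most implied model lengths, 879, equal to a GENCODE M21 transcript length of the same symbol. Reads are the smallest whole numbers that also give a whole model length, so they are mostly lower limits and intervals may be too wide. In 9 members they were divided because the length exceeded the reference by over 1.2 times. Some of the divided reads are not whole, such as 1057.5 with Ad-KLF14 and 646.5 with Ad-GFP for Mrpl18, and their intervals are approximate. In 4 members, Mrpl55, Mrpl23, Mrps30 and Mrps12, the implied length is under 200 bases, shorter than the coding length. All 4 are among the 23 members whose interval held 1, and with more reads some of these intervals might not. Members rest on 5 to 1699 reads (median 478) per library. Recovery was tried on simulated data in which every gene had the length of its longest reference transcript, so other lengths were not tested. The intervals were tried there on the simulated reads, not on recovered ones.

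Differences are on log2(FPKM + 1), which understates those of low genes, and ratios use FPKM without a pseudocount. Counting intervals are 95% Clopper-Pearson intervals rescaled by the totals. Genes whose 2 values averaged 1 FPKM or more were kept, and those 2-fold apart were counted. Named are members 2-fold apart, the 6 highest and 6 lowest differences and the 3 highest and 3 lowest levels in each subunit, the S18 relatives, and in other lists the genes 2-fold apart and the 3 with the largest differences. Mrpl13, Mrpl32, Mrpl38, Mrpl43, Mrpl46, Mrpl55, Mrps11, Mrps12, Nrf1, Gabpa, Gabpb1, Gabpb2, Ppargc1b, Pprc1, Esrra, Sp1 and the other mitochondrially encoded mRNAs were named for the text's other points. Members and lists were chosen with earlier results of these data known. Promoters are RefSeq entries of GRCm38.p6, a later build than that of the files. Python 3.11.15, pandas 2.3.3, numpy 2.4.6 and scipy 1.17.1 were used.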

Additional observations from a re-analysis of the deposited data

How the results depend on the processing

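The slight excess of mitoribosomal mRNAs with Ad-KLF14 kept its direction under every alternative run. The median of all members was 0.17, and it was 0.15 with a pseudocount of 5 FPKM, 0.20 with the trimmed mean set to 0, 0.20 with equal upper quartiles, 0.23 with values scaled to a sum of 1000000, 0.20 without Klf14 reads in the total and 0.15 with the running median removed. For the large subunit these values were 0.14, 0.20, 0.20, 0.22, 0.20 and 0.14, and for the small subunit the sum of 1000000 gave 0.23. These shifts of the medians were larger than counting error, except that of the large subunit with equal upper quartiles. The counting half-widths of the medians were 0.020 for all members, 0.024 for the large and 0.035 for the small subunit. The size of the excess thus depended on the processing. The difference between subunits stayed between −0.03 and −0.01 throughout. The count of members at least 2-fold higher was 4 with a pseudocount of 0.1 FPKM (beside 8.87% of all genes kept) and under each of the 4 other scalings (beside 6.79% to 8.83%), Mrpl47 and Mrps26 joining Mrpl4 and Mrps23. It was 1, Mrpl4, with a pseudocount of 5 FPKM (beside 2.38%) and with the running median removed (beside 6.84%), where Mrps23 had 0.987 and 0.997 on the log2 scale. At 1.5-fold, 13 were higher and 5 lower. At 2-fold no member was lower under any alternative. With the running median removed 47 of 76 members were above 0. Without the filter all 76 members were again included, and with a mean of at least 5 FPKM 74 were. For 35 members named for their differences, levels or S18 descent, 313 values under the alternatives were compared. None changed sign, and all stayed within the half-width of the gene's own counting interval. For single genes that half-width is wider than for the medians, so this is a weaker check. Most of the 35 members were named for large differences, so a change of sign was unlikely for them. Over all 76 members the number above 0 was 50 in the main run and ran from 47 to 51 under the alternatives. No paired analysis was possible because each virus has 1 library, so no library could be left out either. Among single members the counting interval was widest for Mrpl23, at 0.181 to 2.65. Recovered reads are mostly lower limits, so intervals may be too wide, and in the 9 members with divided reads they are approximate.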
